A study of Mus musculus with 12 samples.

Results

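The expression of 7 myosin light chain genes (*Myl1*, *Myl2*, *Myl4*, *Myl6*, *Myl6b*, *Myl9*, and *Mylpf*) and of 2 genes for myosin light chain kinases (*Mylk* and *Mylk2*) was followed in C2C12GFP cells on 4 culture surfaces. These 9 genes were taken by name from a read count table of 55536 mouse genes, and all 9 were found. C2C12GFP is an immortalized mouse myoblast line that carries green fluorescent protein, and every sample came from this 1 line. The plates were uncoated (Control) or coated with Collagen I, fibronectin, or Geltrex™, a laminin-rich basement membrane preparation, with 3 samples in each group and 12 in all. The study asked how these substrates affect differentiation toward fast and slow muscle fibers. The day of culture on which RNA was taken is not given in the sources used here. The labels do not say whether the 3 samples of a group were separate cultures, so the p-values measure only the spread between these samples, which may be technical.

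Each myosin head carries an essential and a regulatory light chain on its lever arm. In skeletal and cardiac muscle these subunits stiffen the lever arm and tune the speed and force of contraction, and their isoforms change as myoblasts fuse and as fibers become fast or slow. In smooth muscle and in non-muscle cells, myosin light chain kinase, activated by calcium and calmodulin, phosphorylates the regulatory light chain and thereby switches the motor on. *Myl1* (fast skeletal), *Myl4* (embryonic skeletal and atrial), *Myl6b* (slow skeletal and also non-muscle), and *Myl6* (smooth muscle and non-muscle) encode essential light chains. *Mylpf* (fast skeletal), *Myl2* (slow skeletal and ventricular), and *Myl9* (smooth muscle and non-muscle) encode regulatory light chains. *Mylk2* encodes the skeletal muscle kinase and *Mylk* the smooth muscle and non-muscle kinase.

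Between 22520404 and 27351766 reads per sample were counted on genes. Levels are given as CPM (counts of a gene per 1000000 counts of the library), with TMM scale factors, and differences as log2 fold changes from 1 fit of edgeR's quasi-likelihood test to all 12 samples. A filter on low counts left 14499 genes, the 9 genes among them, and a gene was called at a Benjamini-Hochberg adjusted p of at most 0.05 over these genes. A few libraries stood apart. Collagen I replicate 3 had 11.5% of its counts on mitochondrial genes, against 4.56% to 8.28% in the other samples. Control replicate 3 and fibronectin replicate 2 had counts on the *Myl1* pseudogene *Mylf-ps* equal to 11.2% and 12.2% of those on *Myl1*, against 6.20% to 7.10% in the other 10 samples. The 3 Geltrex™ samples differed from each other by a chi-square of 2.30 to 5.09 per gene, where sampling noise alone gives about 1 and the pairs in the other groups gave 9.03 to 78.9.

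On fibronectin, 7 of the 9 genes were lower than in the control (14.7% of all genes were), 1, *Myl9*, was higher (17.1% of all genes), and *Myl6* did not pass the test. In either direction 8 of the 9 genes and 31.9% of all genes were called, and at a fold change of at least 2 these were 6 of the 9 and 6.66%. On Geltrex™, 6 of the 9 genes were lower than in the control (16.6% of all genes), *Myl6* and *Myl9* were higher (16.4%), and *Mylk2* did not pass. In either direction 8 of the 9 genes and 33% of all genes were called, and 3 of the 9 and 9.14% passed at a fold change of at least 2. The 5 light chains used in striated muscle (*Myl1*, *Myl4*, *Myl6b*, *Mylpf*, and *Myl2*) fell on both coatings, by log2 fold changes between -2.92 and -1.54 on fibronectin and between -3.08 and -0.88 on Geltrex™. Over the 9 genes the median log2 fold change from the control was -1.54 on fibronectin and -0.88 on Geltrex™, and over all genes it was -0.016 and -0.012. Both comparisons share the 3 control samples. The samples of fibronectin and Control did not overlap for 8 of the 9 genes (41.6% of all genes), nor did those of Geltrex™ and Control for 8 of 9 (50.4%).

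On Collagen I, none of the 9 genes was called against the control by edgeR or by DESeq2, where edgeR called 1.12% of all genes. At an unadjusted p under 0.05 by edgeR's quasi-likelihood test there were 2 of the 9, *Myl1* and *Myl6*, beside 2143 of all 14499 genes. The log2 fold changes of these 2 were 0.25 and 0.30. The samples of Collagen I and Control did not overlap for 2 of the 9 genes, *Myl1* and *Mylk2*, and for 17.3% of all genes.

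Collagen I differed from the other coatings. Against fibronectin 7 of the 9 genes were higher (22.1% of all genes) and *Myl9* was lower (22.9%), so that 8 of 9 and 45% of all genes were called, 7 of 9 and 8.46% at a fold change of at least 2. Against Geltrex™ again 7 were higher (18.2%) and *Myl9* was lower (19%), with 8 of 9 and 37.1% called, 5 of 9 and 9.32% at a fold change of at least 2. *Myl6* passed in neither comparison. The samples did not overlap for 7 of the 9 genes between Collagen I and fibronectin (51.4% of all genes) and for 8 between Collagen I and Geltrex™ (54.7%). Fibronectin and Geltrex™ differed in 5 of the 9 genes, all lower on fibronectin (9.06% of all genes were), where 19.3% of all genes were called in either direction. At a fold change of at least 2 this left 1 of the 9, *Mylk2*, and 3.98% of all genes, and the samples did not overlap for 6 of the 9 and 42.7% of all genes. In the test for any difference among the 4 groups, all 9 genes were called, as were 53.3% of all genes.

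**Figure D1:**
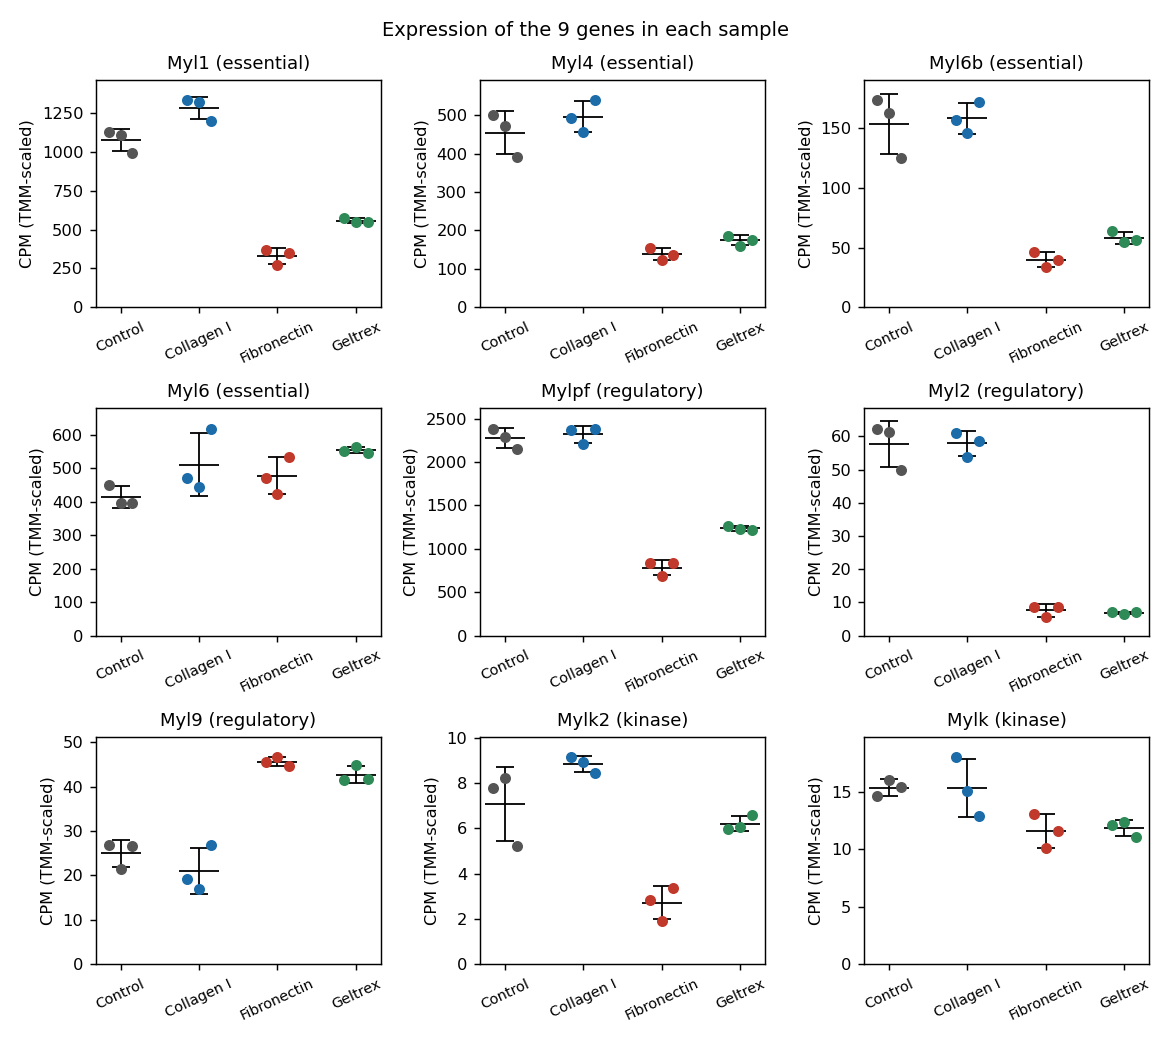
Expression of the 9 genes in CPM (vertical axis, from 0) in each sample of the 4 groups (horizontal axis). Points are samples, the long bar is the mean, and the whiskers are 1 SD of 3 samples. For *Myl1*, *Myl4*, *Myl6b*, *Mylpf*, and *Myl2* all fibronectin and Geltrex™ samples lie below all Control and Collagen I samples, and for *Myl9* they lie above them.

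The upstream sequence of 4 genes is shown to set 3 that were lower together on fibronectin and Geltrex™ (*Mylpf*, *Myl6b*, and *Myl1*) beside the 1 that was higher (*Myl9*). Each run is the part that lies in no annotated exon of the 250 bases before the RefSeq start (build GRCm38.p6), printed 5′ to 3′ on the strand of the gene. Capitals mark an E-box (CANNTG, the core sequence bound by MyoD family factors) or, for *Myl9*, a CArG box, the element bound by serum response factor. The *Mylpf* run is chr7:127211358-127211607 on the plus strand, the *Myl6b* run chr10:128498686-128498935 on the minus strand, the *Myl1* run chr1:66945144-66945290 on the minus strand, and the *Myl9* run chr2:156775214-156775419 on the plus strand.
Mylpf: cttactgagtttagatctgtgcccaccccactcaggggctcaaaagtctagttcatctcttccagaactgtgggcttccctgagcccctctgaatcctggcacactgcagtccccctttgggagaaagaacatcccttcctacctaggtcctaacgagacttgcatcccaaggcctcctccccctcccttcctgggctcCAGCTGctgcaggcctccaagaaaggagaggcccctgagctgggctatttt
Myl6b: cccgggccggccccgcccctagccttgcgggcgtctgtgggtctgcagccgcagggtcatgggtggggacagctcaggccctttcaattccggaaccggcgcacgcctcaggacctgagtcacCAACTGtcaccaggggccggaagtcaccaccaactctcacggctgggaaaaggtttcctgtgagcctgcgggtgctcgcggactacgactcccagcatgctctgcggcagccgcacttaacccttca
Myl1: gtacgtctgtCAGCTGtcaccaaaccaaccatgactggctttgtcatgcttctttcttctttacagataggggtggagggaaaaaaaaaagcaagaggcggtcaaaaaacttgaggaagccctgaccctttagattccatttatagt
Myl9: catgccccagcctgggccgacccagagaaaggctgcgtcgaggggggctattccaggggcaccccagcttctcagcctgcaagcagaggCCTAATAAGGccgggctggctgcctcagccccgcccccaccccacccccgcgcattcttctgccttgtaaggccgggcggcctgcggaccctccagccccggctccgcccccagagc
Counted from the start, with the base before it at -1, the E-box spanned -51 to -46 in *Mylpf*, -127 to -122 in *Myl6b*, and -224 to -219 in *Myl1*, and the CArG box -161 to -152 in *Myl9*.

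An E-box on either strand was present in 66.2% of 32851 mouse windows of this length, a CArG box in 1.47%, and an MEF2 site in 1.69%. *Myl6* and *Myl2* also had an E-box in a window, while the windows of *Myl4* and *Mylk* held none of the 3 motifs and no entry was matched for *Mylk2*. A second *Myl6* start had a CArG box in a window that is exonic throughout. No MEF2 site was found in any of these windows, and motifs of different kinds did not overlap. The *Myl2* starts in RefSeq lie outside the GENCODE gene used here, at -8227 and -7762 from its first base, and their windows are not printed. Other RefSeq starts lie inside the GENCODE gene, at 2718 bases from its first base for *Mylpf*, 348 for *Myl1*, and 39740 for *Mylk*. The printed *Mylpf* and *Myl1* runs therefore lie within the gene spans given below.

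*Myl1*, the fast skeletal essential light chain (ENSMUSG00000061816, chr1:66924295-66945404, minus strand of GRCm38), had the highest level per kilobase of exon among the essential light chains in Control, Collagen I, and Geltrex™. It stood at 1130, 1112, and 994 CPM in the 3 control samples and at 1334, 1321, and 1202 CPM on Collagen I. On fibronectin it stood at 369.99, 269, and 350.3 CPM and on Geltrex™ at 576, 552, and 547 CPM. The 4 groups did not overlap for this gene, with Collagen I highest and fibronectin lowest. Relative to the control, the log2 fold change was -1.71 on fibronectin (SE 0.107, edgeR adjusted p = 1.92e-08) and -0.95 on Geltrex™ (SE 0.105, adjusted p = 4.27e-06), and it was 0.25 on Collagen I (SE 0.104, adjusted p = 0.271), which did not pass. Collagen I exceeded fibronectin by 1.96 (SE 0.108, adjusted p = 3.69e-09), a fitted difference of 3.90-fold, and the difference of fibronectin from Geltrex™ was -0.76 on the log2 scale (SE 0.105, adjusted p = 9.61e-05). The processed pseudogene *Mylf-ps* (ENSMUSG00000113178, chr12:101221997-101222417) matched a *Myl1* transcript at 99.3% of 421 bases, so reads may be split between the 2. With its counts added to those of *Myl1*, no call of *Myl1* was gained or lost.

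*Myl4*, the essential light chain of embryonic skeletal muscle and of the atrium (ENSMUSG00000061086, chr11:104550663-104595753, plus strand), stood at 499.6, 471, and 391.8 CPM in the control and at 493, 457, and 538 CPM on Collagen I. It stood at 155, 124, and 136 CPM on fibronectin and at 186, 160.5, and 176 CPM on Geltrex™. Control and Collagen I overlapped, and every sample on the other coatings was lower. The log2 fold change from the control was -1.72 on fibronectin (SE 0.109, edgeR adjusted p = 2.31e-08) and -1.38 on Geltrex™ (SE 0.108, adjusted p = 1.25e-07). Fibronectin was lower than Geltrex™, at -0.33 on the log2 scale (SE 0.107, adjusted p = 0.0387), a call that was lost without Collagen I replicate 1 (0.0505), fibronectin replicate 2 (0.161) or 3 (0.0701), or Geltrex™ replicate 1 (0.149) or 3 (0.105).

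*Myl6b*, an essential light chain of slow muscle that is also made in non-muscle cells (ENSMUSG00000039824, chr10:128494157-128498685, minus strand), stood at 173, 163, and 125 CPM in the control and at 157, 146, and 172 CPM on Collagen I. On fibronectin the 3 values were 46.2, 33.7, and 39.9 CPM and on Geltrex™ 63.6, 54.5, and 56.2 CPM. The values of Control and Collagen I overlapped, and those of fibronectin lay below all others. *Myl6b* fell on fibronectin, at -1.95 from the control on the log2 scale (SE 0.13, edgeR adjusted p = 3.7e-08) and on Geltrex™, at -1.41 (SE 0.127, adjusted p = 5.67e-07). It was lower on fibronectin than on Geltrex™, with -0.54 as the log2 difference (SE 0.128, adjusted p = 0.00745).

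*Myl6*, the essential light chain of smooth muscle and non-muscle myosin (ENSMUSG00000090841, chr10:128490860-128494145, minus strand), lies 11 bases from *Myl6b* on the same strand. It stood at 451, 395, and 394 CPM in the control, at 469, 444, and 617 CPM on Collagen I, at 472, 424, and 534 CPM on fibronectin, and at 552, 564, and 545 CPM on Geltrex™. The ranges of Control, Collagen I, and fibronectin overlapped, and Geltrex™ was the only group to lie wholly above the control. *Myl6* was higher on Geltrex™ than in the control, with 0.42 as the log2 difference (SE 0.115, edgeR adjusted p = 0.0105), and on fibronectin the log2 fold change was 0.21 (95% interval -0.038 to 0.45, adjusted p = 0.188). Collagen I replicate 3, the library with the highest mitochondrial share, had the highest *Myl6* value of all samples. Without it, *Myl6* was lower on Collagen I than on Geltrex™ (log2 fold change -0.28, adjusted p = 0.0379), where the difference with all samples was -0.12 (adjusted p = 0.447). Whether the mitochondrial share had a part in this was not tested.

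*Mylpf*, the fast skeletal regulatory light chain (ENSMUSG00000030672, chr7:127208890-127214298, plus strand), had the highest level per kilobase of exon of the 9 genes in every group. Its values were 2381, 2293, and 2155 CPM in the control, 2373, 2207, and 2380.1 CPM on Collagen I, 834, 687, and 833 CPM on fibronectin, and 1264, 1224, and 1218 CPM on Geltrex™. Control and Collagen I overlapped, fibronectin was lowest, and Geltrex™ lay between with no overlap. The log2 fold change from the control was -1.54 on fibronectin (SE 0.0892, edgeR adjusted p = 1.28e-08) and -0.88 on Geltrex™ (SE 0.0879, adjusted p = 1.57e-06). The difference of fibronectin from Geltrex™ was -0.65 (SE 0.0876, adjusted p = 7.43e-05). Between Collagen I and Control the difference was 0.027, with a 95% interval of -0.16 to 0.21.

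*Myl2*, the regulatory light chain of slow skeletal and ventricular muscle (ENSMUSG00000013936, chr5:122100951-122113472, plus strand), showed the largest differences of the 9 genes. It stood at 62.3, 61.2, and 49.8 CPM in the control and at 61.1, 53.9, and 58.7 CPM on Collagen I. On fibronectin it stood at 8.77, 5.48, and 8.62 CPM, from 131 to 236 counts per sample, and on Geltrex™ at 7.05, 6.47, and 7.03 CPM. Control overlapped with Collagen I and fibronectin with Geltrex™, and no sample of the first pair came near the second. The fitted level was 7.55-fold lower on fibronectin than in the control (log2 fold change -2.92, SE 0.143, edgeR adjusted p = 2.28e-09) and 8.43-fold lower on Geltrex™ (-3.08, SE 0.146, adjusted p = 1.92e-09). Between Collagen I and Control the log2 fold change was 0.0027 (95% interval -0.26 to 0.27), and between fibronectin and Geltrex™ it was 0.16 (95% interval -0.17 to 0.49), neither past the threshold. Without Control replicate 3 and fibronectin replicate 2, both left out after seeing the data, the latter difference was 0.35 (adjusted p = 0.0359). *Ccdc63*, on the opposite strand, shares 3.08% of the *Myl2* exon bases and had 12 counts over all samples.

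*Myl9*, the regulatory light chain of smooth muscle and non-muscle myosin (ENSMUSG00000067818, chr2:156775420-156781658, plus strand), moved opposite to the skeletal light chains. Its values were 26.9, 21.4, and 26.6 CPM in the control, 19.3, 17.0, and 26.9 CPM on Collagen I, 45.6, 46.6, and 44.7 CPM on fibronectin, and 41.6, 44.9, and 41.8 CPM on Geltrex™. Every sample on fibronectin and Geltrex™ lay above every other sample. *Myl9* was higher than in the control on fibronectin (log2 fold change 0.87, SE 0.133, edgeR adjusted p = 0.000143) and on Geltrex™ (0.78, SE 0.133, adjusted p = 0.000305), and lower on Collagen I than on fibronectin (-1.12, SE 0.134, adjusted p = 1.04e-05). Between Collagen I and Control the log2 fold change was -0.25 (adjusted p = 0.411), and without Collagen I replicate 3 it was -0.47 (adjusted p = 0.046), so that this call depended on 1 library.

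**Figure D2:**
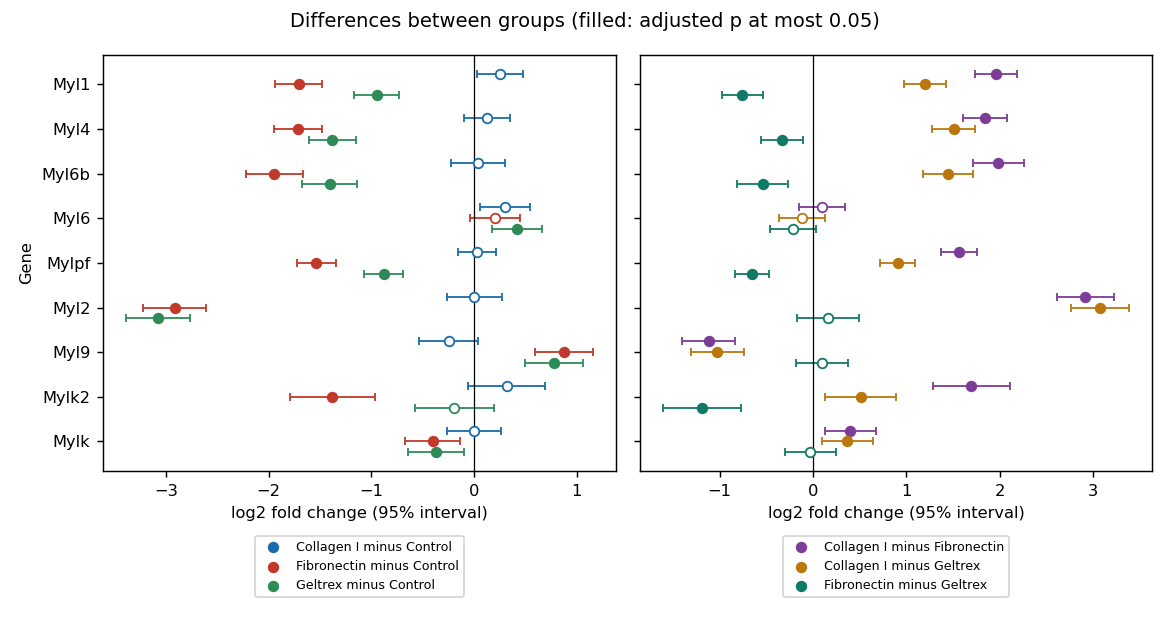
Log2 fold changes of the 9 genes (vertical axis) with 95% intervals (bars), against the control in the left panel and between coatings in the right panel. Filled points have an adjusted p of at most 0.05 over 14499 genes and open points do not. *Myl2* lies farthest to the left for fibronectin (-2.92) and Geltrex™ (-3.08) against the control, and *Myl9* lies to the right of 0 in both.

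*Mylk2*, the kinase of skeletal muscle (ENSMUSG00000027470, chr2:152911352-152923068, plus strand), stood at 7.80, 8.22, and 5.22 CPM in the control and at 9.14, 8.92, and 8.45 CPM on Collagen I. It stood at 2.82, 1.93, and 3.38 CPM on fibronectin, from 46 to 87 counts per sample, and at 5.98, 6.06, and 6.58 CPM on Geltrex™. Fibronectin was below all other samples, and Geltrex™ lay within the range of the control. *Mylk2* was lower on fibronectin than in the control (log2 fold change -1.38, SE 0.195, edgeR adjusted p = 6.87e-05) and than on Geltrex™ (-1.19, SE 0.198, adjusted p = 0.000524), the only one of the 9 genes to differ by 2-fold or more between these coatings. Against the control, Geltrex™ had a log2 fold change of -0.19 (95% interval -0.58 to 0.19, adjusted p = 0.445), and without Control replicate 3 and fibronectin replicate 2 it was -0.37 (adjusted p = 0.0436). Collagen I was above Geltrex™ by 0.51 (adjusted p = 0.0352), and this call was lost without Collagen I replicate 1 (0.0877), 2 (0.0708), or 3 (0.0505) or Geltrex™ replicate 1 (0.105), 2 (0.10), or 3 (0.0666).

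*Mylk*, the kinase of smooth muscle and non-muscle cells (ENSMUSG00000022836, chr16:34745210-35002420, plus strand), differed by at most 1.32-fold in any comparison. Its values were 14.6, 16.0, and 15.4 CPM in the control, 18.0, 15.1, and 12.9 CPM on Collagen I, 13.1, 10.1, and 11.6 CPM on fibronectin, and 12.1, 12.4, and 11.1 CPM on Geltrex™. Fibronectin and Geltrex™ lay below the control without overlap, while Collagen I overlapped with Control and with fibronectin. The log2 fold change from the control was -0.40 on fibronectin (SE 0.127, edgeR adjusted p = 0.0239) and -0.37 on Geltrex™ (SE 0.127, adjusted p = 0.0346), and Collagen I exceeded fibronectin by 0.40 (adjusted p = 0.018) and Geltrex™ by 0.37 (adjusted p = 0.0329). These calls were not stable to the loss of 1 library. The difference between fibronectin and Control was lost without Control replicate 2 (adjusted p = 0.073) or 3 (0.0521) or fibronectin replicate 2 (0.105). That between Geltrex™ and Control was lost without Control replicate 2 (0.105) or 3 (0.0736) or any 1 of the Geltrex™ replicates (0.0843, 0.0685, and 0.129 in order of their numbers). That between Collagen I and fibronectin was lost without Collagen I replicate 1 (0.112) or fibronectin replicate 2 (0.0841), and that between Collagen I and Geltrex™ without Collagen I replicate 1 (0.183) or 2 (0.0586) or any Geltrex™ replicate (0.0769, 0.0621, and 0.123).

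Levels of different genes were compared as CPM per kilobase of exon. In the control, the order was *Mylpf* (2143), *Myl1* (520), *Myl6* (130), *Myl4* (97.9), *Myl6b* (83.3), *Myl2* (29.6), *Myl9* (21.5), *Mylk2* (2.40), and *Mylk* (1.36 CPM per kilobase). The ranges of *Myl4* (84.5 to 108) and *Myl6b* (67.9 to 93.9) overlapped there, while those of *Myl2* (25.5 to 31.9) and *Myl9* (18.4 to 23.2) did not. On fibronectin, *Myl6* at 150 CPM per kilobase (133 to 168) overlapped with *Myl1* at 159 (130 to 178), and *Myl9* at 39.3 lay above *Myl4* (29.8), *Myl6b* (21.6), and *Myl2* (3.91). *Mylk* at 1.03 (0.900 to 1.16) and *Mylk2* at 0.918 (0.653 to 1.14) overlapped on fibronectin, where in the 3 other groups *Mylk2* was the higher of the 2 kinases per kilobase in every sample. Parts of this order depend on the length used. Per kilobase of the longest transcript, a choice added after seeing the data, *Myl4* (139) and *Myl6* (136) overlapped in the control, and on fibronectin *Myl1* (249 to 342) lay above *Myl6* (139.5 to 176) and *Myl4* (37.9 to 47.4) overlapped with *Myl9* (39.6 to 41.3). By the same length *Mylk* (1.29 to 1.67) lay above *Mylk2* on fibronectin, and the kinases overlapped in the control (1.87 to 2.05 for *Mylk* and 1.77 to 2.78 for *Mylk2*).

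The makeup of the light chain pool was then computed in each sample from counts per kilobase. Among the 4 essential light chains, *Myl1* took 61.4%, 63.1%, and 63.4% in the control and 65.5%, 66.8%, and 59.0% on Collagen I. On fibronectin it took 46.4%, 42.2%, and 43.6% and on Geltrex™ 52.9%, 52.5%, and 52.4%. Fibronectin and Geltrex™ therefore lay below the other groups and apart from each other. The share of *Myl6* was 15.9%, 14.6%, and 16.4% in the control, 14.99%, 14.6%, and 19.7% on Collagen I, 38.5%, 43.2%, and 43.3% on fibronectin, and 32.9%, 34.9%, and 34.0% on Geltrex™. The smooth muscle and non-muscle isoform thus made up a larger share of the essential light chain counts on fibronectin and Geltrex™, although its own level there stayed within 1.34-fold of the control mean. *Myl4* went from 11.76% ± 0.503 (SD, n = 3) in the control to 8.30% ± 0.657 on fibronectin and 7.34% ± 0.446 on Geltrex™, and *Myl6b* from 9.98% ± 0.860 to 6.0% ± 0.464 and 6.14% ± 0.376.

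Among the 3 regulatory light chains of the 9 genes, *Mylpf* took 93.8% to 98.01% in every sample. *Myl12a*, described below, was not in this pool, and its mean CPM exceeded those of *Myl2* and *Myl9* in every group. *Myl2* took 1.39%, 1.42%, and 1.23% in the control, 1.37%, 1.30%, and 1.31% on Collagen I, 0.542%, 0.407%, and 0.534% on fibronectin, and 0.294%, 0.278%, and 0.304% on Geltrex™. *Myl9* took 1.01%, 0.833%, and 1.101% in the control, 0.727%, 0.689%, and 1.01% on Collagen I, 4.73%, 5.81%, and 4.65% on fibronectin, and 2.91%, 3.23%, and 3.03% on Geltrex™. In Control and Collagen I *Myl2* made up the larger of these minor shares in all 6 samples, and on fibronectin and Geltrex™ *Myl9* did. Each of the 7 shares differed among the 4 groups in an exact permutation test over the 15400 ways to assign the samples to 4 groups of 3 (adjusted p = 0.000606 for 6 shares and 0.0011 for *Myl6b*, over the 7 shares). Pairs of groups were not tested, since 3 samples against 3 cannot give an exact two-sided p under 0.1. The size of a share depends on the length assigned to each gene: the gap between Collagen I and fibronectin for *Myl4* was 2.69 percentage points per kilobase of exon, 6.16 without division by length, and 1.37 with the longest transcript. Over the same choices the gap ran from 0.835 to 1.51 for *Myl2*, from 1.90 to 3.42 for *Mylpf*, and from 1.81 to 2.81 for *Myl6b*, all in the same direction and all past the threshold of the test among the 4 groups.

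**Figure D3:**
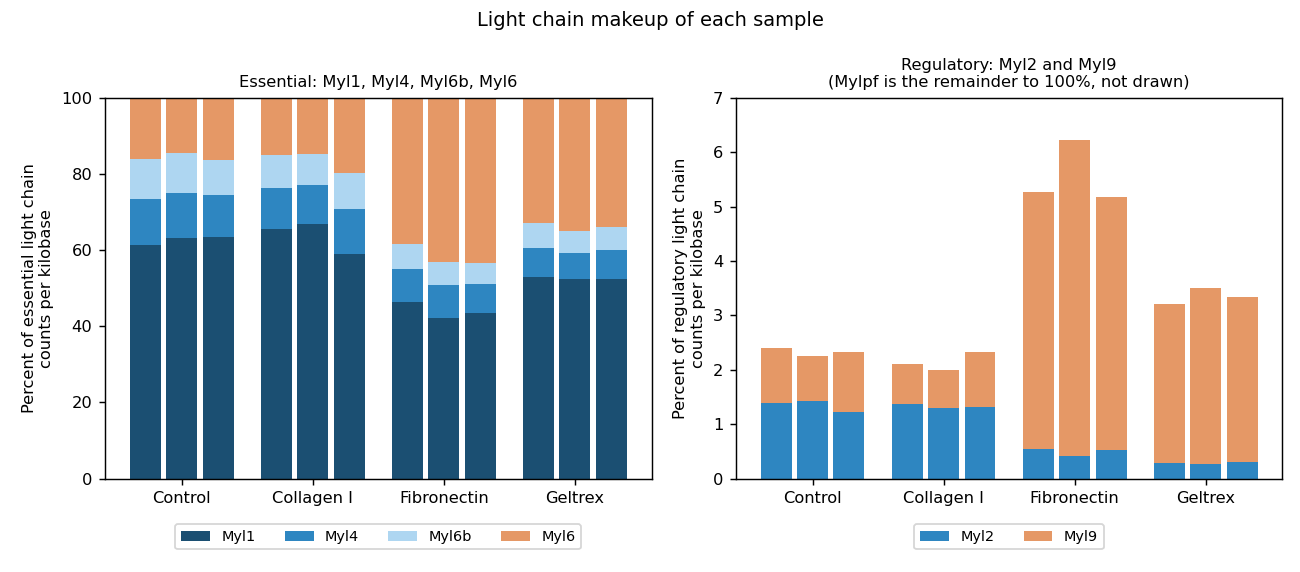
Percent of the essential (left) and regulatory (right) light chain counts per kilobase that each gene takes, 1 bar per sample, in replicate order within each group. The pools hold only the light chain genes drawn and *Mylpf*. In the right panel the axis ends at 7% and *Mylpf*, which is the rest of the 100%, is not drawn. *Myl6* takes 38.5% to 43.3% on fibronectin and 14.6% to 16.4% in the control, and *Myl9* takes over from *Myl2* as the larger minor regulatory share on fibronectin and Geltrex™.

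The log2 ratio of the slow to the fast regulatory light chain, *Myl2* over *Mylpf* per kilobase, was -6.18 ± 0.113 in the control, -6.20 ± 0.0396 on Collagen I, -7.59 ± 0.223 on fibronectin, and -8.37 ± 0.0645 on Geltrex™ (SD, n = 3). The samples of Control and Collagen I overlapped, and the groups on fibronectin and Geltrex™ were each separate from all others, with Geltrex™ lowest. The ratio of the fast essential to the non-muscle essential light chain, *Myl1* over *Myl6*, was 2.004 ± 0.0946, 1.97 ± 0.335, 0.082 ± 0.164, and 0.63 ± 0.0467 in the same order of groups. The ratio of *Myl9* to *Mylpf* was -6.65 ± 0.207, -6.94 ± 0.300, -4.23 ± 0.189, and -4.98 ± 0.0792. These 3 ratios differed among the groups in the exact permutation test, with adjusted p of 0.00108, 0.00108, and 0.000649 over 5 ratios. The kinase ratio, *Mylk2* over *Mylk*, was 0.79 ± 0.363, 1.15 ± 0.184, -0.20 ± 0.318, and 0.998 ± 0.157 (exact permutation test, adjusted p = 0.00682). The ratio of the embryonic to the fast essential light chain, *Myl4* over *Myl1*, moved less, at -2.41 ± 0.0834, -2.54 ± 0.193, -2.41 ± 0.125, and -2.84 ± 0.0864 (exact permutation test, adjusted p = 0.0166, and 0.0581 without Geltrex™ replicate 2).

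Of the other light chain genes, 3 were near or at 0. *Myl3*, the slow and ventricular essential light chain, reached 2 counts at most per sample and *Myl10* 1, and *Myl7*, the atrial regulatory light chain, had 0 counts in all 12 samples, which allows up to 3 counts per sample. *Myl12a*, a non-muscle regulatory light chain, stood at 444 ± 26.5 CPM in the control, 458 ± 47.0 on Collagen I, 351 ± 10.1 on fibronectin, and 384 ± 11.2 on Geltrex™ (SD, n = 3). It was lower on fibronectin than in the control (log2 fold change -0.34, edgeR adjusted p = 0.00563), where *Myl9* was higher. *Myl12a* and *Myl12b* were not part of the regulatory shares above. *Myl12b* has 2 identifiers in the table, of which ENSMUSG00000117098 (52.4 CPM in the control) had a log2 fold change of -0.38 on fibronectin and ENSMUSG00000034868 (9.48 CPM) of -0.15, neither called against the control. *Myl12a* and *Myl12b* are near-identical, and reads may be split between them.

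Of 5 other kinases that act on light chains, *Dapk1* had at most 1 count and 4 were tested. Of these, 3 were lower on fibronectin than in the control and 2 on Geltrex™, beside 14.7% and 16.6% of all genes. *Mylk4*, a kinase of striated muscle, went from 14.5 CPM in the control to 7.85 on fibronectin (log2 fold change -0.88) and 5.63 on Geltrex™ (-1.37). *Dapk3*, which phosphorylates regulatory light chains without calcium, went from 28.3 to 18.2 CPM (-0.64) and 21.2 CPM (-0.41), and *Dapk2* fell on fibronectin (-0.26). *Mylk3*, the cardiac kinase, had at most 25 counts and was not called. The median over the 4 was -0.45 on fibronectin and -0.31 on Geltrex™.

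For the calcium sensor of the kinases, 2 of 4 calmodulin genes were higher on fibronectin than in the control and 1 on Geltrex™ (17.1% and 16.4% of all genes were), with medians of 0.23 and 0.20. *Calm2* was lower on Collagen I (284 CPM) than on fibronectin (411 CPM), with a difference of -0.53 on the log2 scale. Of 9 genes of the light chain phosphatase and its inhibitors, 8 were tested, and 2 were lower on fibronectin than in the control and 1 on Geltrex™, beside 14.7% and 16.6% of all genes. *Ppp1r12b*, the myosin targeting subunit of striated muscle, stood at 44.1 CPM in the control, 43.2 on Collagen I, 24.3 on fibronectin, and 33.4 on Geltrex™, and *Ppp1r14c*, an inhibitor of the phosphatase, stood at 23.2, 26.05, 14.4, and 23.6 CPM.

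The heavy chains that carry these light chains were set beside them. Of 9 heavy chain genes of striated muscle, 8 were lower on fibronectin and 8 on Geltrex™ than in the control, beside 14.7% and 16.6% of all genes. The median log2 fold changes over the 9 were -1.65 and -1.55. *Myh1*, lower on Collagen I, was the 1 called between Collagen I and Control, where 1.12% of all genes were called. *Myh3*, the embryonic heavy chain, stood at 2283 CPM in the control and 554 on fibronectin, and *Myh7b* at 4.96 and 1.08 CPM. Of the non-muscle heavy chains, *Myh9* was higher on fibronectin (2142 CPM against 1646, log2 fold change 0.38) and on Geltrex™ (2110 CPM, 0.36), as was *Myh10* (0.57 and 0.35), while the third, *Myh14*, at 0.793 CPM in the control and 0.270 on fibronectin, was lower on fibronectin. *Myh11*, the heavy chain that defines smooth muscle, had at most 6 counts in any sample. Of 14 tested genes of serum response factor and smooth muscle contraction, 5 were higher and 4 lower on fibronectin than in the control, and 7 higher and 2 lower on Geltrex™, with medians of 0.18 and 0.31, so that genes of this list moved both ways. Over all genes 17.1% were higher and 14.7% lower on fibronectin, and 16.4% higher and 16.6% lower on Geltrex™. *Flna* (filamin A) was higher on fibronectin (1905 CPM against 933 in the control), and *Tpm2*, a tropomyosin, was lower (576 CPM against 1513).

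Markers of differentiated myoblasts moved in the same direction as the skeletal light chains, and most markers of dividing cells moved in the opposite direction. All 12 myotube markers were lower than in the control on fibronectin (median log2 fold change -1.75) and on Geltrex™ (-1.43), beside 14.7% and 16.6% of all genes. None of the 12 was called on Collagen I, where 1.12% of all genes were. The summed level of the 12 myotube markers was 7557 to 8402 CPM in the control, 7378 to 8432 on Collagen I, 3090 to 3341 on fibronectin, and 3998 to 4385 on Geltrex™. Of 10 markers of proliferating myoblasts, 8 were higher on fibronectin (median 1.53) and on Geltrex™ (1.52), beside 17.1% and 16.4% of all genes. The sum over the 10 was 216 to 262 CPM in the control, 185 to 193 on Collagen I, 615 to 800 on fibronectin, and 643 to 695 on Geltrex™. *Pax7* had at most 19 counts in any sample. In such bulk samples, fewer myotubes and less light chain RNA per myotube cannot be told apart, and the part of these markers in the light chain differences was not tested. Of 8 cardiac markers, *Nppa*, *Nkx2-5*, *Tbx5*, and *Myl7* had at most 8 counts. The sum over the list (240.5 to 898 CPM) was nearly all *Tnnt2*, which embryonic skeletal muscle also expresses. For either coating against Control, 1 of the 4 tested cardiac markers rose and 1 fell. Over all genes 17.1% rose and 14.7% fell on fibronectin, and 16.4% rose and 16.6% fell on Geltrex™. Mean *Tnnt2* was 852 CPM (Control), 250 (fibronectin), and 297 (Geltrex™). Mean *Nppb* was 0.39, 1.01, and 3.41 CPM for the same groups, and its counts never exceeded 88. Group means of *Gata4* ran from 17.7 to 19.3 CPM. The 6 smooth muscle markers summed to 47.3 to 60.6 CPM in the control, 42.8 to 58.9 on Collagen I, 43.8 to 49.1 on fibronectin, and 63.0 to 67.9 on Geltrex™, which lay above all other samples. *Myh11*, *Cnn1*, and *Myocd* were at 9 counts or fewer, *Actg2* was higher than in the control on fibronectin (log2 fold change 1.25) and Geltrex™ (1.43), *Lmod1* was higher on Geltrex™ (1.25), and *Smtn* was lower on fibronectin (-0.48). Their part in the light chain differences was not tested. Fibroblast markers summed to 5194 to 6526 CPM in all groups, mostly *Col3a1* and *Dcn*, and endothelial and immune markers to 0.697 to 1.65 CPM. Of the 6 fibroblast markers, 2 were lower on fibronectin and 3 on Geltrex™ than in the control, beside 14.7% and 16.6% of all genes.

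**Figure D4:**
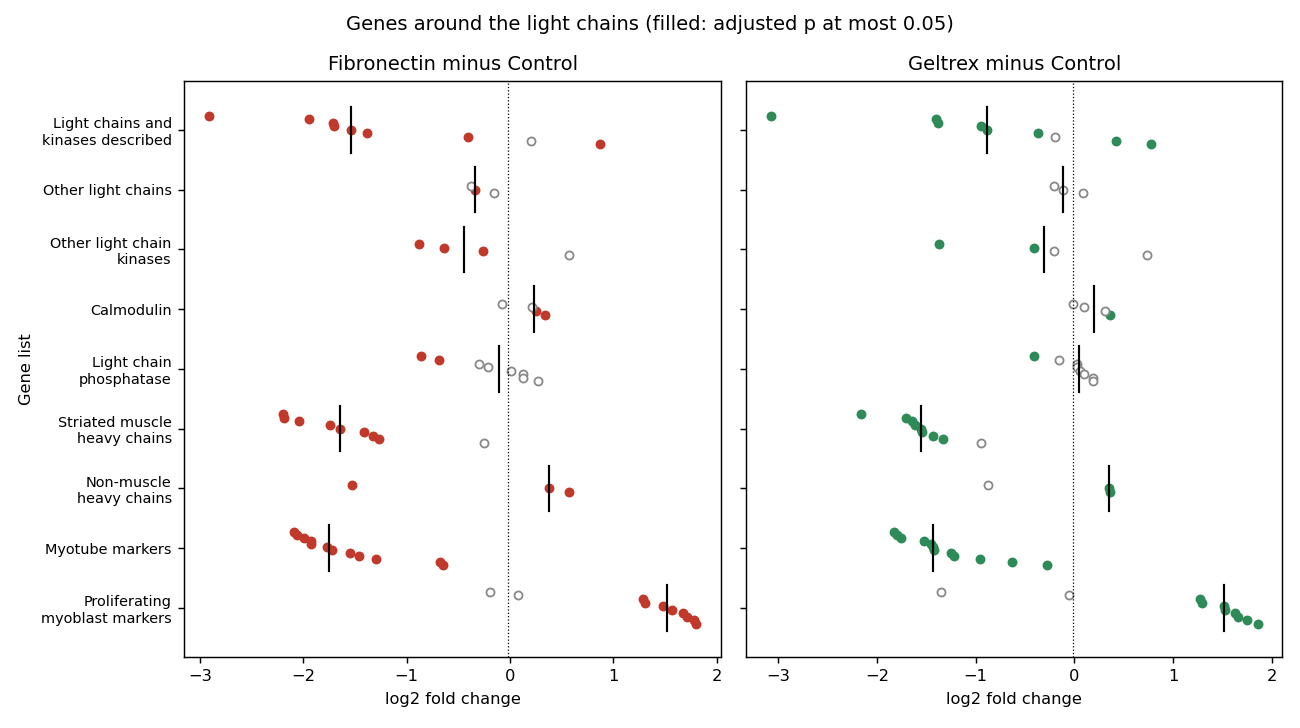
Log2 fold changes from the control (horizontal axis) of the 9 genes and of genes in 8 lists, on fibronectin (left) and Geltrex™ (right). Each point is a gene, filled where the adjusted p is at most 0.05, the vertical bar is the median of the list, and the dotted line is the median of all genes tested. The heavy chains of striated muscle (medians -1.65 and -1.55) and the myotube markers (-1.75 and -1.43) lie on the same side as the skeletal light chains.

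For each of the 9 genes, the genes nearest in profile were sought among 12311 tested genes with a mean of at least 1 CPM, as the smallest root mean square difference of centered log2 CPM over the 12 samples, which share their libraries. *Myl1* was nearest to *Pgam2*, the muscle phosphoglycerate mutase (0.0859), and *Atp2a1*, the fast fiber calcium pump (0.0985), and *Myl4* to *Tnni1*, the slow troponin I (0.0799), and *Apobec2* (0.0981). *Myl6b* was nearest to *Acta1*, skeletal actin (0.0821), and *BC051019* (0.0992), and *Mylpf* to *Ip6k3* (0.103) and *Tpm2* (0.1245). *Myl2* was nearest to *Pstpip1* (0.255) and *Tnnt1*, the slow troponin T (0.314). Its distance to its nearest gene was the largest of the 9 genes, as was its own SD over the samples (1.58). *Myl9* was nearest to 2 genes of dividing cells, *Incenp* (0.128) and *Mcm2* (0.128), where its own SD was 0.54. *Myl6* was nearest to *Rps20* (0.0646) and *Evc* (0.0739), *Mylk* to *Slc9a2* (0.0873) and *Gprc5b* (0.0942), and *Mylk2* to *Il12a* (0.199) and *Ddc* (0.1999), with SDs of 0.21, 0.24, and 0.71 for the 3 genes themselves.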

How the data were processed

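RNA of 12 C2C12GFP samples (4 groups of 3) was sequenced. The authors deposited a table of raw read counts per gene with Ensembl identifiers. The submitters' processing notes name FastQC, Trimmomatic, HISAT2, featureCounts, and DESeq2. The genome build, the annotation, and the strand setting are not given in the sources used here, so reads of overlapping genes could not be told apart by strand. Names and positions came from GENCODE M21 (GRCm38), which held all 55536 identifiers.

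Counts were tested as deposited with edgeR 4.0.16 (limma 3.58.1, R 4.3.3): filterByExpr (minimum count 10, minimum total 15) left 14499 genes, followed by TMM scaling and 1 quasi-likelihood fit of the 4 groups with 6 comparisons. Benjamini-Hochberg adjustment ran over all genes tested. Two-sided exact permutation tests of a one-way F (15400 splits, smallest p = 6.49e-05) were used for shares (adjusted over 7) and ratios (over 5). They were computed with numpy 2.4.6 under Python 3.11.15. Similar transcripts were found with BLAST 2.17.0. The genes named outside the 9 are members of fixed lists, those with the largest Collagen I to fibronectin differences or the defining markers, and the nearest genes in profile; a few were picked after their values were seen. The members and the lists were chosen with earlier results of these data known. In data simulated for fibronectin against Control (14221 genes), 176 of 196 changed genes were recovered, with 12 false calls.

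Alternatives were DESeq2 1.42.0, RLE in place of TMM scale factors, total counts, and no or a stricter filter. Others were only the groups compared, a replicate block, other gene lengths, and each sample left out. Also run, and chosen after seeing the data, were Control 3 with fibronectin 2 left out, the Geltrex™ samples summed, and *Mylf-ps* added to *Myl1*. Sequence identity between the proteins was not analysed here, and 1 gene list is not reported here.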

Additional observations from a re-analysis of the deposited data

How the results depend on the processing

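Of the 54 differences of the 9 genes, 37 were called, and 29 of these were called under all 22 other settings, 8 were lost under at least 1, and none turned. Genes called between Collagen I and Control, 162 in all, became 450 with DESeq2, 581 with no filter, 39 with only the groups compared, and 45 with the Geltrex™ samples summed. Summing also left 2079 genes between Geltrex™ and Control, 2130 between Collagen I and Geltrex™, and 703 between fibronectin and Geltrex™, where 3 of the 9 genes were then called. It ended the calls of *Myl6* (adjusted p = 0.134) and *Mylk* (0.265) between Geltrex™ and Control, of *Mylk* between fibronectin and Control (0.0564), of *Mylk2* (0.239) and *Mylk* (0.248) between Collagen I and Geltrex™, and of *Myl6b* (0.134) and *Myl4* (0.333) between fibronectin and Geltrex™, by edgeR. The fit then has 1 Geltrex™ sample, assumed to vary like the other groups. With Control 3 and fibronectin 2 left out, *Mylk* was not called on fibronectin (0.157) or Geltrex™ (0.0576) against Control or for Collagen I against fibronectin (0.0925), nor *Myl4* for fibronectin against Geltrex™ (0.104). Leaving out 1 sample gave 0 to 1 of the 9 genes and 44 to 233 genes called between Collagen I and Control, 1717 to 3436 genes between fibronectin and Geltrex™, and a *Myl4* over *Myl1* difference of -0.23 to -0.049 between Collagen I and fibronectin. Differences near 0 that changed sign were those between Collagen I and Control of *Myl2* (-0.0023 with the stricter filter, -8.1e-05 with the block, -0.093 with Control 3 and fibronectin 2 out, -0.093 to 0.06 over single samples left out), *Mylpf* (-0.011, -0.011 to 0.065), *Myl6b* (-0.086, -0.086 to 0.14), and *Mylk* (0.0060 with total counts, 0.0046 with only the groups compared, -0.13 to 0.097), that of *Myl6* between Collagen I and fibronectin (-0.057 to 0.19), and that of *Mylk* between fibronectin and Geltrex™ (0.056 with both out, -0.13 to 0.056). The causes were not tested. Samples with the same number did not deviate together in every pair, so the numbers were not taken to pair the samples. With the replicate block no call of the 9 genes changed. The test of *Myl4* over *Myl1* among the 4 groups then had an adjusted p of 0.0608 (exact permutation test), no longer past the threshold. That p does not test the Collagen I to fibronectin difference of -0.13. *Mylk2* on fibronectin rests on 46 to 87 counts per sample.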

Other observations

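The counts of the striated light chains, without *Myl6* and *Myl9*, were set beside those of the striated heavy chains, both per kilobase of exon, a ratio chosen after seeing the data and given without a test. The summed essential light chains (*Myl1*, *Myl4*, and *Myl6b*) stood at 1.44 to 1.77 times the summed heavy chains in the control, 1.65 to 1.97 on Collagen I, 1.47 to 2.43 on fibronectin, and 2.21 to 2.65 on Geltrex™. The summed regulatory light chains (*Myl2* and *Mylpf*) stood at 4.45 to 5.39, 4.27 to 5.67, 5.47 to 8.74, and 7.67 to 9.28 times the heavy chains in the same order, so the Geltrex™ samples lay above all control samples in both ratios. The ratio of these essential to these regulatory light chains was 0.307 to 0.331 in the control, 0.347 to 0.387 on Collagen I, 0.269 to 0.2997 on fibronectin, and 0.286 to 0.295 on Geltrex™, with Control and Collagen I each apart from all other groups. With *Myl6* and *Myl9* included the order changed, at 0.364 to 0.387 in the control, 0.428 to 0.45 on Collagen I, 0.446 to 0.468 on fibronectin, and 0.424 to 0.427 on Geltrex™. The regulatory sum still left out *Myl12a* and *Myl12b*, and the ratio with them included was not computed.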
